A study of Danio rerio with 6 samples.

Results

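The normal trunk and tail muscle of zebrafish larvae is described here from the 3 wildtype sibling arrays among the 6 arrays of the series. Each array, numbered 1 to 3, held pooled muscle of wildtype siblings of runzel larvae, collected at 3 to 3.5 days post fertilization, and the number of larvae per pool was not given in the sources used here. Runzel is a zebrafish line with a titin mutation. Its 3 mutant arrays, of the same age and dissection, were used only to count shared genes and compare which array number was highest. Head, heart and gut were cut away before RNA extraction, so skin, notochord, spinal cord, vessels, pigment cells and connective tissue could stay with the muscle. RNA was read on the Affymetrix Zebrafish Genome Array, on which a probe set is a group of short oligonucleotides for 1 transcript. Of 15502 probe sets that were not manufacturer's controls, 10795 carried exactly 1 gene symbol, and with each gene at its brightest probe set these gave 8793 genes.

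Skeletal muscle shortens when myosin heavy chains, each carrying light chains, pull on actin filaments. Calcium released from the sarcoplasmic reticulum binds troponin on the thin filament, which moves tropomyosin and lets myosin bind, and calcium pumps and parvalbumin then bring cytosolic calcium down. Creatine kinase and glycolysis keep ATP supplied. In fish, a bulk of fast fibres lies beneath a thin superficial layer of slow fibres, and the teleost genome duplication left many muscle genes as a and b copies.

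The deposited values are linear signal intensities in arbitrary units. The 2% trimmed mean over all probe sets was 1500.45, 1500.46 and 1500.46 on arrays 1 to 3, and the median signal over genes was 877, 860.2 and 839.5. Across genes, the log2 values of any pair of arrays correlated at 0.967 to 0.975 (Pearson) and 0.964 to 0.973 (Spearman), a description over genes that share arrays and are not independent. The ratio of 3′ to 5′ signal on the manufacturer's actin controls, a common reading of RNA integrity, was 1.43, 1.37 and 1.74, and on the GAPDH controls 1.60, 1.58 and 1.53. A probe set's signal depends on its own oligonucleotides as well as on RNA level, so the order below is an order of signal and not of molecules. Since the arrays hold bulk RNA, fewer cells of a type and less RNA per cell cannot be told apart. Errors are SD over the 3 arrays, and no label says whether a replicate number marks a clutch. With 1 array per pool, differences between pools and between hybridisations cannot be told apart, here or wherever spread between pools is given below.

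The 30 brightest genes were those of the contractile apparatus, its calcium handling and its energy buffer on one side, and of protein synthesis on the other. Genes were ranked by the mean of log2(signal + 50) over the 3 arrays, rank 1 being the highest. Of the 30, 11 stood in the contractile, calcium or energy lists, 12 were cytosolic ribosomal proteins and 1 was a translation elongation factor. Another 3 stood in lists of other tissues, and 3 in no list.

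Brightest of all was actc1b, which encodes an alpha-actin of striated muscle. Its signal was 136060.3, 144401 and 173549 on arrays 1 to 3, a mean of 151337 ± 19684, and it ranked first on each array. The alkali light chain gene mylz3 and the regulatory light chain gene mylpfa, both of fast muscle myosin, ranked 2 and 5. The signal of mylz3 was 111338, 121028 and 145896, highest on array 3. The signal of mylpfa was 108985, 113139 and 128335, in the same order over the arrays. Between them stood tnnc2.2, a fast troponin C that binds the calcium signal, at 117746, 129203 and 129145, with arrays 2 and 3 almost equal. The troponin T gene tnnt3b, whose product ties the troponin complex to tropomyosin, ranked 10 at 100267, 105628 and 114956.

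Both muscle creatine kinase genes, which regenerate ATP from phosphocreatine, and 2 parvalbumin genes stood among the same 30. The parvalbumin genes pvalb2 and pvalb1 encode a soluble calcium buffer abundant in fast fish muscle. The signal of pvalb2 was 117369, 117824 and 135077, and that of pvalb1 104276, 106215 and 129116. For both genes, arrays 1 and 2 were close and array 3 was higher. The signal of ckmb was 96282, 101669 and 120448, and that of ckma 95768, 100304 and 108818. The calcium pump gene atp2a1, which returns calcium to the sarcoplasmic reticulum, ranked 29 at 82082, 86001 and 87745. A further alpha-actin, actc1a, ranked 27 at 80239.9, 91299.9 and 93125, lowest on array 1.

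The genes of the 30 that stood in lists of other tissues came from the epidermis list, the blood list and the gut, liver and pancreas list. Which tissue their signal came from was not tested. The keratin gene krt4, of the outer epidermal layer, ranked 15 at 92013, 98383 and 109000.5. The embryonic alpha-globin gene hbae3 ranked 11 at 94633, 100239.9 and 126412, and the apolipoprotein gene apoa2 ranked 17 at 100476, 88231 and 97708. Array 3 was the highest for krt4 and hbae3, whereas apoa2 was highest on array 1. The genes in no list were COX1, a mitochondrially encoded subunit of cytochrome c oxidase at 116190.4 ± 10712, rack1, a ribosome-associated scaffold at 95666 ± 11012, and bhmt, a methyltransferase of methionine metabolism at 90808 ± 13592 (SD, n = 3). The remaining genes of the 30 were eef1a1l1, which brings aminoacyl-tRNA to the ribosome, at 111642 ± 9339, and 12 ribosomal protein genes between 84584 ± 3567 for rps14 and 114346 ± 8660.4 for rps2.

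**Figure D1:**
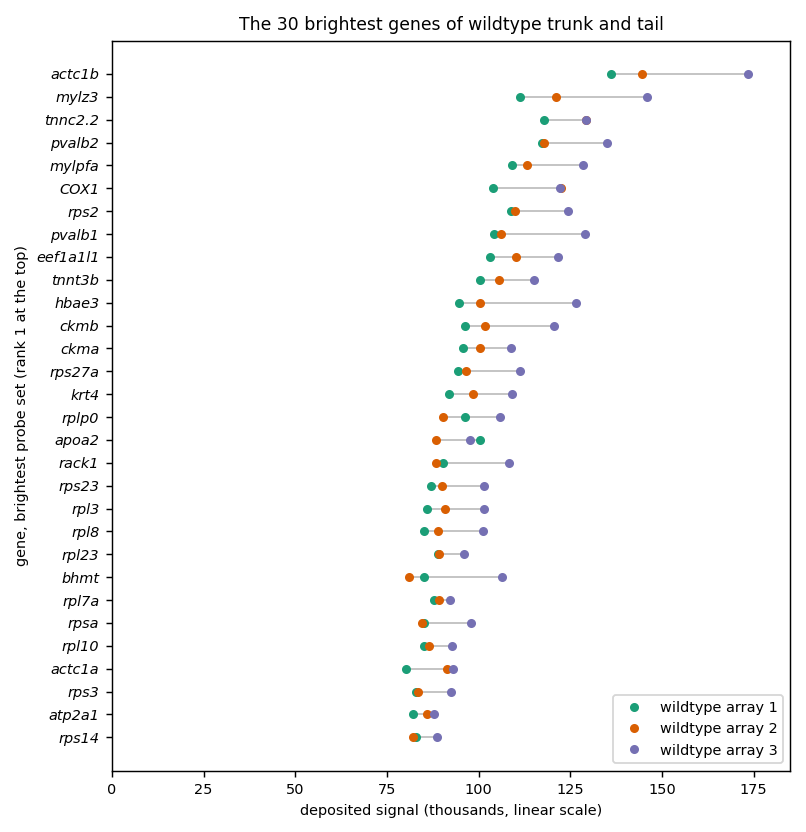
Signal in arbitrary units divided by 1000 (horizontal axis) of the 30 brightest genes (rows, brightest at the top) on wildtype arrays 1 to 3 (coloured points). A grey line joins the lowest and the highest value of each gene. The 3 points of actc1b lie apart from those of most genes at 136060.3 to 173549, and array 3 is the highest of the 3 for 27 of the 30 genes.

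Membership at the top varied little between pools. Of the 30 brightest genes by mean, 26 were among the 30 brightest of every wildtype array, and of the 100 brightest, 92 were among the 100 brightest of every wildtype array. Of those 100, 95, 96 and 95 were also among the 100 brightest of runzel arrays 1 to 3. The order within the 30 was less sharp than its membership, since neighbours such as ckmb and ckma differed by less than their own spread between arrays. Leaving out probe sets whose name suffix marks probes shared by several transcripts kept 28 of the 30.

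Signal was concentrated in few genes. The 10 brightest genes held 4.13 ± 0.315% of the summed signal (SD, n = 3), the 30 brightest 10.5 ± 0.657%, the 100 brightest 27.2 ± 1.13% and the 1000 brightest 70.4 ± 0.851%. The share of the 100 brightest was 26.3% on array 1, 26.9% on array 2 and 28.4% on array 3. The 72 ribosomal protein genes alone held 16.3 ± 0.502%, more than any other list. All 6 measured actins together held 1.48 ± 0.108%, the 8 myosin light chains 1.66 ± 0.0604%, and the 15 tropomyosins and troponins 1.65 ± 0.0677%.

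The lower end of the scale was set beside 17 control probe sets for artificial tag sequences. Their mean signals over the wildtype arrays ran between 18 and 463, with a median of 107. Among the genes, 5963 (67.8%) lay above the highest of these controls, and 638 lay below their median. A gene at or below the highest control was therefore given as a value only, and the table held no detection call. At the upper end, 95 genes lay above the 3′ probe set of the spiked cre control, at 58200, and the table held no mark for saturation.

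The 27 gene lists, 16 of muscle and general functions and 11 of markers of other tissues, were then placed on this scale. A percentile is the share of the 8793 genes ranked at or below a gene, so the median over all genes is 50. Medians at or above the 90th percentile were found for 9 lists: ribosomal proteins (99.2), actins (99.2), myosin light chains (98.9), elongation factors (97.3), filaments and Z disc (94.1), fibroblast matrix (93.4), parvalbumins (93.2), epidermis (92) and calcium release and uptake (90.4). Heart markers (10.7), lens and eye markers (11.2), white blood cell markers (28.7) and myogenic regulators (41.9) had the lowest medians. Not every symbol was measured: the 784 symbols asked for gave 485 genes.

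**Figure D2:**
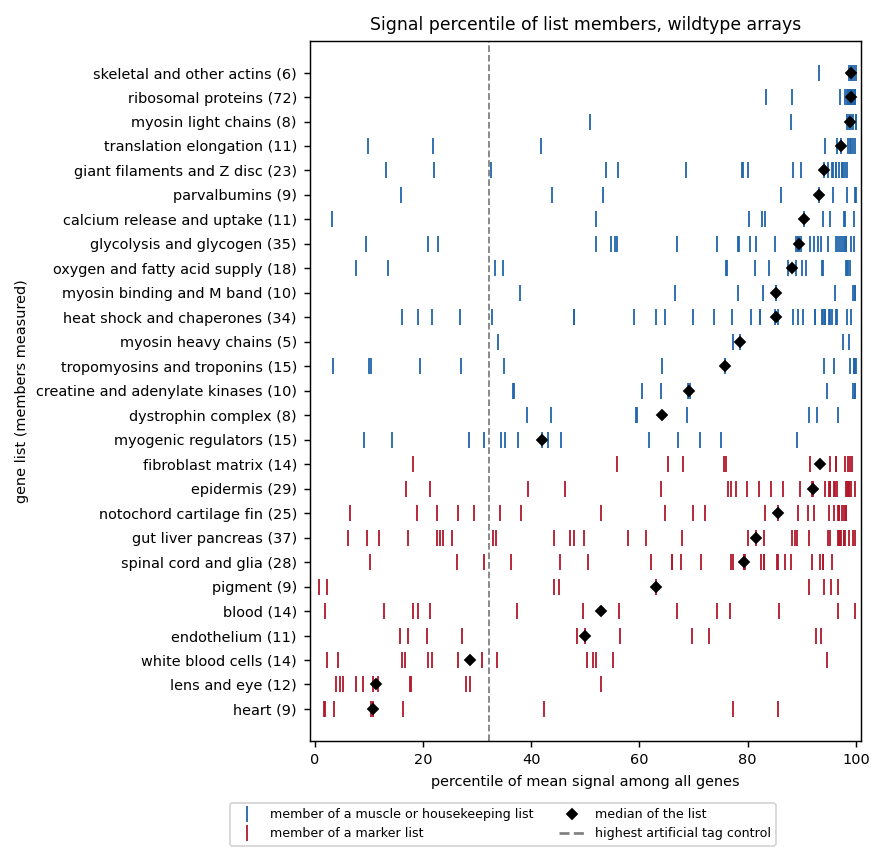
Percentile of mean log2(signal + 50) among the 8793 genes (horizontal axis) for every measured member (vertical ticks) of each gene list (rows, with the number measured). List medians are black diamonds, and the highest artificial tag control, at the 32.2 percentile, is a dashed line. Ribosomal protein genes, actins and myosin light chains crowd at the right edge, whereas heart and lens markers lie mostly left of the dashed line.

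Most protein synthesis genes were bright. Of the 72 ribosomal protein genes, 70 were at or above the 90th percentile, and the exceptions, rpl7l1 at 3472 ± 449.9 and rps27l at 4974 ± 547, are ribosomal-protein-like genes. Of 11 elongation list genes, 8 were at or above the 90th percentile. Elongation factor 2, eef2b, which moves the ribosome along, had 70564, 75825 and 83694, highest on array 3. In contrast, eef1a1a and eef1a1b, of the same family as eef1a1l1, had 648 ± 123 and 283 ± 32.8, and eef2a.1 had 134 ± 58.7.

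A fast and a slow gene were the brightest of the 5 measured myosin heavy chains. The fast-muscle gene myhz1.3 had signals of 44869, 60881 and 60077 (rank 106). The slow-muscle gene smyhc1, of the superficial slow fibres, had signals of 20597, 34817 and 30391 (rank 209). Both were lowest on array 1 and highest on array 2. The nonmuscle myosin genes myh10 and myh9a lay lower, at 2687 ± 607 and 484 ± 53.8, and 18 heavy chain symbols had been asked for. The light chains were measured in 8 genes, and the 4 brightest, mylz3, mylpfa, myl1 and myl10, were all among the 100 brightest genes. The essential light chain gene myl1 had 70970.0, 74881 and 77589 and the light chain gene myl10 67057, 64423 and 69749.5. For myl1 and myl10 the spread over the pools was 0.13 and 0.11 on the log2 scale. The dimmest light chain was myl9b, of smooth muscle, at 886 ± 129.

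The myosin-binding protein H gene mybphb ranked 49 at 66907, 74694 and 87980.4. The myosin-binding protein C gene mybpc3, the cardiac form in mammals, had 16298, 15821 and 15214 and one of the narrower spreads of the list, 0.10 on the log2 scale. In contrast, mybpc2b, whose mammalian counterpart is the fast-muscle form, had 2363, 3789.9 and 6527, each pool clearly apart. The M-band ubiquitin ligase genes trim63a, trim63b, trim55b and trim55a had mean signals of 3943 ± 530.1, 3345 ± 561, 2649 ± 799 and 1569.5 ± 474.

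On the thin filament, all 6 measured actins were at or above the 90th percentile. The skeletal alpha-actin gene acta1a had 42996, 54352 and 64378 (rank 111), lowest on array 1 and highest on array 3. The cytoplasmic actin genes actb1 and actb2 ranked 64 and 84, at 69241 ± 2944 and 62853 ± 1135. The smooth-muscle actin gene acta2 was the dimmest of the 6, at 8435 ± 1446. Among 15 tropomyosins and troponins the signals were split. Of these, 7 were at or above the 90th percentile and 6 below the 50th. The fast troponin I gene tnni2a.4 had 77514, 79082 and 88841. The alpha-tropomyosin gene tpma had 77338, 83678 and 83666, and the troponin T gene tnnt3a 53629.8, 58734 and 61772. All 3 were lowest on array 1. At the other end, tnni2a.3 and tnni2a.2, of the same troponin I family, had 366 ± 10 and 53.5 ± 9.91. The slow and cardiac troponin C gene tnnc1a had 132 ± 31, below the highest tag control.

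The filament and Z-disc list, 23 measured genes, had no member among the 100 brightest. Its brightest members were pdlim7 and ldb3b, PDZ-LIM proteins of the Z disc. The signal of pdlim7 was 41049, 43315 and 45873, and that of ldb3b 30059.6, 33597 and 34269. The Z-disc genes myoz1b, encoding a calcineurin-binding protein, and actn3b, a fast-fibre alpha-actinin, ranked 210 and 228. Filament ends are capped by products of capzb at 26299 ± 4718 and tmod4 at 16728 ± 1782. The titin gene ttn.2, for the spring that spans from Z disc to M band, had 9571, 28933 and 14897, and nebulin, neb, the thin filament ruler, had 9879.8, 18602 and 16709. Both were lowest on array 1 and highest on array 2, and ttn.2 spanned 1.59 on the log2 scale. Desmin, desma, the intermediate filament around the Z disc, was instead high on array 3 alone, at 11139, 9814 and 22728. The chaperone gene cryaba was the dimmest of the list at 168 ± 53.6.

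The 9 parvalbumins, all measured, covered nearly the whole scale. Below pvalb2 and pvalb1, pvalb4 ranked 145 at 46201, 39865 and 36183. The signal of pvalb9 was 19089, 14724 and 10340.4. That of pvalb3 was 6088, 9674 and 10336, and that of pvalb8 6982, 2546 and 4148. These last 3 did not keep a common order over the pools: pvalb9 and pvalb8 were highest on array 1, and pvalb3 was highest on array 3. The dimmest were pvalb7 at 969 ± 149, pvalb6 at 689 ± 48.3 and pvalb5 at 212 ± 84.3, the last below the highest tag control.

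Among calcium genes, the calmodulin gene calm3b and the pump gene atp2a1l followed atp2a1. The signal of calm3b was 31708, 30763 and 32658, and that of atp2a1l 25038, 33723 and 30181. Sarcalumenin, srl, and calsequestrin, casq2, hold calcium within the sarcoplasmic reticulum. The signal of srl was 14768, 14131 and 8980.2, lower on array 3, and that of casq2 10129, 8461 and 10573. The pump gene atp2a2b, of the form found in slow and cardiac muscle of mammals, had 2875 ± 77.1, and s100a1 was the dimmest of the 11 at 53.1 ± 20.6.

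Among the energy lists, the brightest genes were those of cytosolic kinases and of glycolysis. No list of oxidative phosphorylation was made. Of its genes, COX1 ranked 6, above ckmb at 12 and ckma at 13, and the ATP synthase genes atp5mc3b and atp5f1b ranked 62 and 83. Adenylate kinase 1, ak1, had 73463, 73331 and 81813 (rank 48), whereas the mitochondrial creatine kinase genes ckmt1 and ckmt2a had 1714 ± 315 and 566 ± 236. Of 35 glycolysis and glycogen genes, 16 were at or above the 90th percentile and 3 below the 50th. The dehydrogenase gene gapdh had 75778, 77592 and 95196, and the aldolase gene aldoab 62364, 69080.3 and 63542. For gapdh array 3 was the highest, and for aldoab array 2, with ranges of 0.33 and 0.15 on the log2 scale. Muscle enolase, eno3, and muscle phosphoglycerate mutase, pgam2, ranked 163 and 198. In mitochondria, the ADP/ATP carrier gene slc25a4 had 55132, 54035 and 60408 and the phosphate carrier gene slc25a3b 46247, 47394 and 49769. Myoglobin, mb, the oxygen store of red muscle, was dim and uneven, at 201, 797 and 725, with array 1 low.

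Transcription factors of the muscle lineage were not among the brightest genes. No member of the 15 measured myogenic regulators reached the 90th percentile, against 880 of all 8793 genes. Below the 50th percentile lay 10 of the 15, against 4396 of all genes. At or below the highest tag control lay 4 of the 15, against 2830 of all genes. In a list of this size these counts do not set it apart from all genes. The brightest was mef2ca at 4249.7, 6064 and 5913 (rank 958). Myogenin, myog, had 2065, 2146 and 1386, whereas myod1 had 489, 304 and 401 and myf5 352, 569 and 414. In the dystrophin complex list, 8 genes measured, dag1, encoding dystroglycan, had 7992 ± 1113, cav3 6784 ± 1269.7 and dmd, dystrophin itself, 1231 ± 386. The same list held cav1, at 18952 ± 1459, which also stood in the notochord, cartilage and fin list. Which tissue its signal came from was not tested. Of the 34 heat shock and chaperone genes, hspa8 and hsp90ab1, the constitutive cytosolic Hsp70 and Hsp90, were the brightest at 67679.7 ± 2598 and 40647 ± 6018. The dimmest 3 were Hsp70 family genes. Of these, hspa8b had 323, 159.8 and 159 and hsp70.3 256, 187 and 448. The signal of hspa1b was 90.5, 153 and 846, above the tag controls on array 3 alone.

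Markers of neighbouring tissues stood beside these muscle genes. Of 29 epidermis markers, 16 were at or above the 90th percentile, among them krt4, krt1-19e at 65918 ± 7901, krt91 at 53327 ± 7543 and krt8 at 52053 ± 6981. Among 14 fibroblast matrix genes, the collagen genes col1a1a and col1a2 had 69036 ± 3785 and 58051 ± 3061. The notochord, cartilage and fin list was led by and1, an actinodin of the fin fold, at 37977 ± 3459, and col2a1a, the main collagen of cartilage and notochord sheath, at 36377 ± 10138. The spinal cord and glia list was led by gfap, a glial filament, at 13445 ± 2711. These 4 lists held 1.83 ± 0.0703%, 0.93 ± 0.0283%, 0.865 ± 0.1% and 0.344 ± 0.0424% of the summed signal in the order named.

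Tissues that the dissection should remove fell into separate patterns. Of 9 heart markers, 6 lay at or below the highest tag control. The defining atrial and ventricular light chain gene myl7 had 42.3, 27.6 and 45.9 (rank 8628), and nkx2.5, a cardiac transcription factor, 97.9, 15 and 15.7. The brightest of that list were hand2, which is also known from fin buds, at 4119 ± 1103, and myh7, the gene listed as vmhc, a ventricular myosin heavy chain, at 2461 ± 473. Of 12 lens and eye markers, 11 lay at or below the highest tag control. Of 37 gut, liver and pancreas markers, 14 were at or above the 90th percentile, 14 were below the 50th and 8 lay at or below the highest tag control. The brightest were apolipoprotein and plasma carrier genes, apoa2, apoa1a at 75551 ± 5316 and rbp4 at 53705 ± 6061, whereas the pancreatic genes cpa1 and ela2 had 100.2 ± 72.8 and 158 ± 69.9. Another pancreatic gene, the trypsin gene prss1, had 1976, 912 and 774, above the highest tag control on each array. From the same list, fabp2 had 3064 ± 1472 and rbp2a 3694 ± 1915. Of the apolipoproteins, apoeb, known to be expressed widely outside the liver, had 21826 ± 2741. How far RNA of other tissues entered the signals of genes shared between tissues was not tested.

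The use of duplicate genes was read from pairs of symbols that differ only in a final a or b. This symbol rule also takes in genes that are not duplicates, such as sdha and sdhb, different subunits of succinate dehydrogenase, so counts over all pairs are not of duplicates alone. The gap between pair members can come from their probes, so it was set beside the gap between probe sets of 1 gene, which measure the same gene by design. Among 1539 genes with at least 2 probe sets, the brightest and dimmest differed by a median of 1.16 on the log2 scale, and 55.8% differed by more than 1. In 1192 genes with exactly 2 probe sets the median was 0.955. Among 662 a and b pairs the median absolute gap was 1.16, and 55.3% differed by more than 1. Set against genes with exactly 2 probe sets, of which 48.2% differed by more than 1, the pairs had the wider median gap. Among bright genes the direction was the other way. The median gap was 1.55 in 149 pairs whose brighter member was at or above the 90th percentile. It was 2.05 in 163 genes with at least 2 probe sets, the brightest at or above that percentile.

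In the genes with the widest gap between probe sets, the dimmest probe set lay at the level of the tag controls. The 4 probe sets of actc1b had means of 151337, 144822, 147 and 56.4, a gap of 10.57 on the log2 scale. The ATP synthase subunit gene atp5l, the ribosomal protein gene rpl21, the light chain gene myl12.1 and hsp90ab1 followed, with gaps of 9.06, 8.91, 8.84 and 8.46. For ttn.2, the 4 probe sets had means of 17800.4, 16824, 84.1 and 19.9. The first and second of these agreed on the arrays' order, lowest on array 1 and highest on array 2.

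The order within a pair was the same on all 3 arrays for 563 of 662 pairs (85%), with the a copy brighter in 313 and the b copy in 250. The same probe sets are read on every array, so a fixed difference between probes would also keep the order. The same count for probe sets of 1 gene is not given here, so a kept order does not by itself show copy use. Where the brighter copy was at or above the 90th percentile, 142 of 149 pairs kept their order. The muscle lists held 21 such bright pairs by symbol. One of them, eif5a and eif5b, are unrelated initiation factors that share a name and were left aside. All of the other 20 kept their order on the 3 arrays, the a copy being brighter in 6 and the b copy in 14. Their median gap was 1.92, and 12 of the 20 exceeded the median gap of 1.16 between probe sets of 1 gene. This compares with 95 of all 149 bright pairs and 332 of all 662, so the share was close to that of bright pairs at large. In 163 genes whose brightest probe set was at or above the 90th percentile, the brightest and dimmest differed by a median of 2.05. The median gap of the 20 pairs was not wider than that.

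Among those 20, some pairs had 1 bright copy and 1 dim copy. The widest was the mitochondrial phosphate carrier, with slc25a3a minus slc25a3b at -7.76 ± 0.23 on the log2 scale (SD, n = 3). Of the 1192 genes with exactly 2 probe sets, bright or dim, 0.3% had as wide a gap. A gap over 3 was found in 93 of those 1192 genes. It was found in 55 of the 163 genes whose brightest probe set was at or above the 90th percentile. The 0.3% is therefore not a share among bright genes. Myosin-binding protein H followed, with mybpha minus mybphb at -6.96 ± 0.60. In lactate dehydrogenase B the a copy was brighter, ldhba minus ldhbb being 6.03 ± 0.44, and in desmin likewise, desma minus desmb being 4.74 ± 0.80. In glycolysis, aldoca minus aldocb was -5.42 ± 1.01, tpi1a minus tpi1b -5.15 ± 0.18 and eno1a minus eno1b 4.52 ± 0.31. The dim copies differed in how far down they lay. The signal of tpi1a was 792, 1061 and 898, well above the tag controls, whereas that of slc25a3a was 207, 155 and 155, within their range. Also within it were ldhbb and aldoca, at the 20.82 and 9.35 percentiles, the highest control lying at the 32.2 percentile. Close to that control was desmb, at the 32.49 percentile. How far these gaps reflect copy use was not tested. A tropomyosin pair had tpm4a minus tpm4b at 4.17 ± 0.062.

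Other pairs had both copies among the bright genes. The muscle creatine kinase genes were nearly equal, ckma minus ckmb being -0.058 ± 0.077. The brain-type pair was less even, with ckba minus ckbb at -2.65 ± 0.24. The difference for actc1a minus actc1b was -0.77 ± 0.12, for tnnt3a minus tnnt3b -0.88 ± 0.031 and for ldb3a minus ldb3b -0.76 ± 0.26. More than 50% of genes with 2 probe sets had gaps as wide as these 3. For actc1a minus actc1b and for capza1a minus capza1b, at -0.16 ± 0.13, the sign turned when all probe sets of a gene were averaged, to 4.29 and 1.203. The dimmest 2 of the 4 probe sets of actc1b lay at the tag level. Aldolase A, aldoaa minus aldoab at -0.81 ± 0.16, and glucose phosphate isomerase, gpia minus gpib at 0.71 ± 0.30, were also within the gap between probe sets of 1 gene. Outside the muscle lists, the widest pairs were the claudin genes cldna minus cldnb at -6.96 ± 0.16, pyrophosphatase ppa1a minus ppa1b at -5.91 ± 0.27 and the RNA-binding vigilin genes hdlbpa minus hdlbpb at 5.89 ± 0.28. These pairs were taken by symbol alone, and cldna lay at the 0.02 percentile.

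**Figure D3:**
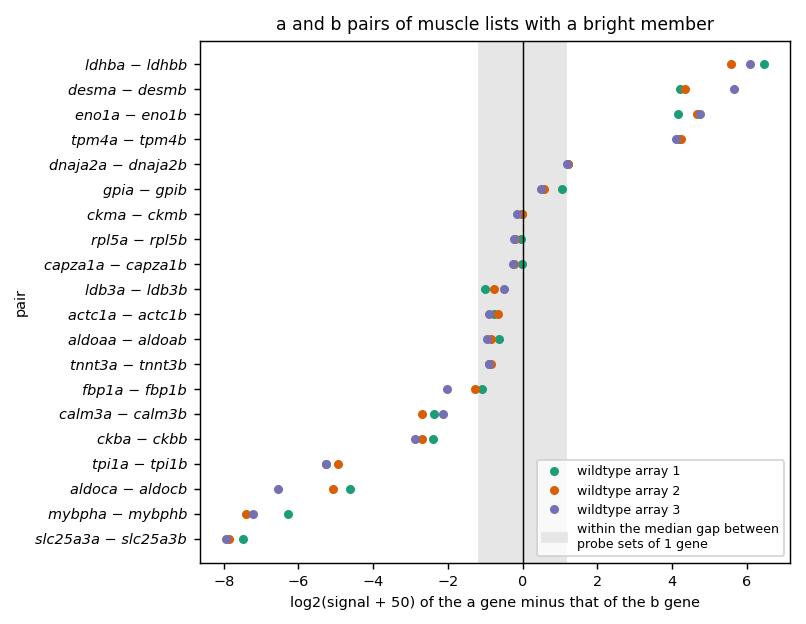
Log2(signal + 50) of the a copy minus the b copy (horizontal axis) on wildtype arrays 1 to 3 (coloured points) for the 20 bright muscle-list pairs (rows), with the median gap between probe sets of 1 gene, 1.16, shaded on both sides of 0. Every row lies on one side of 0 on all 3 arrays, and 8 pairs have their mean inside the shaded band. For genes whose brightest probe set is at or above the 90th percentile the median gap is 2.05, wider than the band.

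Spread between pools was small and shrank with signal. The median absolute log2 difference over genes was 0.264 between arrays 1 and 2, 0.289 between arrays 1 and 3, and 0.237 between arrays 2 and 3. The median SD over the 3 arrays was 0.405 in the lowest 10% of genes by signal, whose median signal was 79.9. In the highest 10%, of median signal 11540, it was 0.14. The steadiest of the 500 brightest genes was cct5, a subunit of the chaperonin that folds actin and tubulin, at 16949, 16773 and 16688, a range of 0.022 on the log2 scale. Malate dehydrogenase, mdh2, came next with 34999.7, 34292 and 34487. The dynein light chain gene dynll1 had 22075, 22067 and 21615. The others of the 10 steadiest with gene names were dlst, rps10, hnrnpabb, sumo3a, uqcrh and ctnnb2.

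Few of the brighter genes differed widely between the pools. Of 4397 genes at or above the median signal, 169 (3.84%) spanned more than 1 on the log2 scale, that is 2-fold, and 8 spanned more than 2. The median range was 0.351. Taking for each of the 169 the array farthest from the other two, array 1 stood apart in 75 (44.4%), array 2 in 38 (22.5%) and array 3 in 56 (33.1%). The same split over all 4397 genes is not given here, so these shares do not set the 169 genes apart. The arrays lay both high and low: array 1 was high in 35 and low in 40, array 2 high in 23 and low in 15, and array 3 high in 28 and low in 28. The highest wildtype array had the same number as the highest runzel array for 122 of the 169 genes (72.2%), against 2233 of all 4397 (50.8%).

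Of the 169, 22 had only a clone or locus name and are counted but not described, among them the 2 with the widest ranges. Leaving these out, the gene with the widest range was cyp26a1, an enzyme that breaks down retinoic acid. Its signal was 2558, 7353 and 1171, a range of 2.60 on the log2 scale. The related cyp26b1 had 2823, 6623 and 1749.6. Both retinoic acid enzymes were highest on array 2 and lowest on array 3. The genes scamp5a, of secretory membranes, with 1479, 336 and 2260.5, and rhbg, an ammonium transporter of the Rhesus family, with 4838, 856 and 983, differed from that pattern. In scamp5a array 2 was low, and in rhbg array 1 was high.

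In 4 of the 15 genes with the widest ranges after clone and locus names were left out, 6 of which had wider ranges than the last of the 15, array 1 was lowest and array 3 highest. The actin-binding Xin gene xirp1 had 421, 896 and 2410.3, a range of 2.39. The cytokine-pathway transcription factor gene stat3 had 998, 2535 and 5245. Hsp90 alpha, hsp90aa1.1, the myosin chaperone of zebrafish muscle, had 3659, 4889 and 11284. The keratin gene krt15 had 2407, 4373 and 7754. In xirp1, stat3 and krt15 the value of each array was apart from both others, whereas in hsp90aa1.1 arrays 1 and 2 were closer.

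The remaining genes of these 15 had other patterns. The collagen gene col11a2, of cartilage, was low on array 1 at 2323, 8577 and 7925, and abat, which breaks down GABA, likewise at 394, 1370.2 and 1205. The vitronectin gene vtnb was low on array 3 at 2364, 2285 and 459, and so was desi1a, a SUMO protease gene, at 1729.8, 1453 and 453. The carboxylesterase gene ces2a was high on array 1 at 6535, 2371 and 1869. For tnrc6c2, of microRNA silencing, and pcca, of propionate breakdown, array 2 was highest, at 564, 2369 and 1314 and at 3083, 4538 and 1456. In xirp1, scamp5a, vtnb, desi1a and abat the lowest value lay below the mean of the highest tag control, 463. The ranges of scamp5a, vtnb, desi1a and abat therefore rest on 1 value at the level of the controls. In xirp1 the values above that level, 896 and 2410.3, also lay apart.

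**Figure D4:**
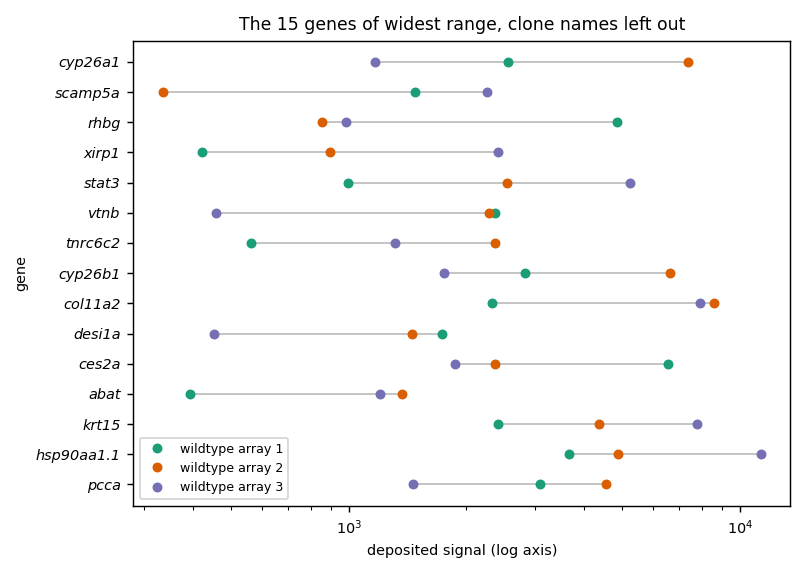
Signal on a log axis in arbitrary units (horizontal) of the 15 genes with the widest range among genes at or above the median signal, clone and locus names left out (rows), on wildtype arrays 1 to 3 (coloured points). The range is 2.60 on the log2 scale for cyp26a1 at the top and 1.61 for pcca at the bottom, and no single array is the high one in all rows.

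Whole lists also shifted between pools. A shift is the median, over the list's genes at or above the median signal, of an array's log2 value minus the mean of the 3 arrays. Over all 4397 such genes the shifts were 0.011, -0.008 and -0.002 on arrays 1 to 3. For 20 filament and Z-disc genes they were -0.21, 0.047 and 0.15, and 14 of the 20 were highest on array 3 and 0 on array 1. Of all 4397 genes, 1452 were highest on array 3 and 1619 on array 1. Within that list the range passed 1 for 5 genes: xirp1, ttn.2, flncb at 1.34, desma at 1.21 and xirp2a at 1.15. A range over 1 was also found in 4 of 23 gut, liver and pancreas markers and 3 of 25 epidermis markers. It was found in 3 of 18 notochord, cartilage and fin markers, 2 of 32 glycolysis genes and 2 of 27 heat shock genes. The count was 1 of 9 myosin-binding and M-band genes and 1 of 7 parvalbumins. Among markers it was 1 of 7 for blood, 1 of 5 for endothelium and 1 of 23 for spinal cord and glia. These counts are of genes at or above the median signal, and over all 4397 such genes it was 169 (3.84%). The count was 0 of 6 actins, 0 of 8 myosin light chains, 0 of 9 troponins or tropomyosins and 0 of 72 ribosomal protein genes. In the highest 10% of all genes by signal it was 17 of 880, so counts of 0 in lists of these sizes do not set them apart.

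Markers of other tissues shifted in other directions. Of all 4397 genes at or above the median signal, 1619 were highest on array 1, 1326 on array 2 and 1452 on array 3. For 18 notochord, cartilage and fin genes the shifts were -0.32, 0.29 and 0.07, with 12 of the 18 highest on array 2. For 23 spinal cord and glia genes they were -0.12, 0.18 and -0.067, with 14 highest on array 2. For 7 blood genes they were -0.33, -0.065 and 0.25, with 6 highest on array 3. Epidermis markers, 25 genes, were highest on array 1 in 13, with shifts of 0.11, -0.15 and 0.049. The gut, liver and pancreas list, 23 genes, had 0.078, -0.11 and -0.023. The part of these tissues in the shifts of the muscle lists was not tested.

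**Figure D5:**
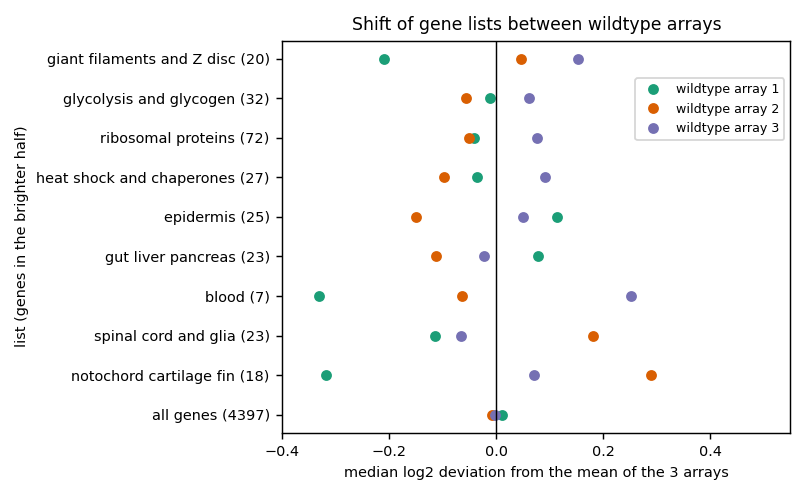
Median log2 deviation from the mean of the 3 wildtype arrays (horizontal axis) of genes at or above the median signal, for 9 lists and for all 4397 genes (rows, with numbers of genes), with arrays 1 to 3 as coloured points. All genes lie at 0 within 0.011, the filament and Z-disc list is lowest on array 1 at -0.21, and the notochord, cartilage and fin list ranges between -0.32 on array 1 and 0.29 on array 2.

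Array 3 was the highest of the wildtype arrays for 83 of the 100 brightest genes, while the medians of all genes were close. After quantile normalization over the 3 arrays, an alternative chosen after seeing the data, that count was 34, and after centring each array on its median it was 89. The 72 ribosomal protein genes, with shifts of -0.042, -0.052 and 0.077, moved to 0.008, -0.0086 and -0.006 under quantile normalization. Quantile normalization makes the sorted values of the arrays equal, so the lower count and the small shifts follow from its construction. Array 3 had the highest actin 3′ to 5′ ratio, 1.74, but the lowest GAPDH ratio, 1.53, and the part of RNA quality in this was not tested.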

How the data were processed

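Per the labels, pooled trunk and tail muscle RNA was purified with Qiagen RNeasy or RNeasy Micro kits, biotin-labelled, hybridised and scanned on a GeneChip Scanner 3000 with GeneChip Operating Software 1.2. The deposited table holds the intensity of each probe set on each array, on a linear scale, and its equal trimmed means show that it was already scaled. The summary method and scaling target are not given in the sources used here. Of 15617 probe sets, 115 were controls, 135 had several symbols and 4572 none. Of the 10795 with 1 symbol, 10711 matched RefSeq by Entrez identifier and 1 symbol was updated. Values were analysed as log2(signal + 50) with Python 3.11.15, pandas 2.3.3 and numpy 2.4.6, with no test and no further normalization, and the scripts were tested on simulated data. The number of arrays, 3, limits the precision.

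Members and lists were chosen with earlier results of these data known. In the lists, 13 symbols were found by synonym. Named genes were the 30 brightest, up to 8 brightest and the dimmest of each muscle list, up to 4 brightest of each marker list, bright a and b pairs of muscle lists and the 6 widest pairs. The 15 of largest and 10 of smallest range, muscle-list genes with at least 3 probe sets and the 5 widest probe set gaps completed the rule, and other genes were named after their values were seen. Clone names were counted, not described. Alternatives were other pseudocounts, a filter, probe set choice, left-out arrays and other scalings.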

Additional observations from a re-analysis of the deposited data

Results flagged for a closer look

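Among the 4707 probe sets with no gene symbol or with several, which entered no ranking, 2003 (42.6%) had a mean wildtype signal above the highest artificial tag control. Of the 100 brightest probe sets that were not manufacturer's controls, 13 had no symbol or several. They drew attention because they carry signal outside the genes described, and their genes were not named.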

How the results depend on the processing

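No paired analysis was possible because the values describe 1 group and come from no test. The median log2 difference between arrays was 0.263 with a pseudocount of 50, 0.291 with 1, 0.21 with 200 and 0.218 after leaving out genes below the 40th percentile. The median gap between probe sets of 1 gene, 1.16, became 1.32, 0.893 and 1.297 under the same settings, and that between a and b copies, 1.16, became 1.25, 0.97 and 0.831. Averaging probe sets raised the share of the 100 brightest genes to 28.7% and turned actc1a minus actc1b (-0.77) to 4.29 and capza1a minus capza1b (-0.16) to 1.203. By construction it gives no gap within a gene. Under the filter, which left fewer genes, 84 genes in place of 169 spanned more than 1, and 298 of 354 pairs in place of 563 of 662 kept their order. With 1 array left out, 61 to 88 genes spanned more than 1 (61 without array 1, 88 without array 2, 80 without array 3), fewer arrays giving narrower ranges. Likewise the difference between arrays was 0.237 to 0.289, the share 26.6% to 27.7%, the a and b gap 1.104 to 1.195, pairs in 1 order 595 to 598, and lists with a median at or above the 90th percentile 8 or 9. The other summary values stayed within the spread between arrays or within 1.5 times. Signal near the tag controls limits what dim genes can show, and 3 pools of unstated size limit the spread.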

Other observations

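Marker lists of pigment cells, vessels and white blood cells were mixed. In the pigment list, 4 of 9 measured genes were at or above the 90th percentile: dct, of melanin synthesis, gch2, of pteridine synthesis, and paics and atic, of purine synthesis, which is not particular to pigment cells. Another 4 of the 9 were below the 50th percentile, and 2 lay at or below the highest tag control. Of 14 white blood cell markers, lyz, lysozyme, was at or above the 90th percentile, 9 were below the 50th and 8 lay at or below the highest tag control. Of 11 endothelium markers, aqp1a.1, a water channel, and plvapb, of fenestrated vessels, were at or above the 90th percentile, and 6 were below the 50th.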
